A study of Mus musculus with 3 samples.

Results

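The costimulatory receptors of T cells were examined as 5 listed genes of the 33696 in the deposited matrices. They were *Icos* (ENSMUSG00000026009), *Cd28* (ENSMUSG00000026012), *Tnfrsf4* (OX40, ENSMUSG00000029075), *Tnfrsf9* (4-1BB, ENSMUSG00000028965) and *Tnfrsf18* (GITR, ENSMUSG00000041954). The members were chosen by name, and all 5 were found once in the gene list. Each was followed in CD8, Foxp3-negative CD4, Foxp3-positive and cycling T cells and in NK cells.

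The samples were single-cell RNA-seq libraries of tumor-infiltrating leukocytes from wild-type B6129SF1/J (F1) mice bearing subcutaneous KP1 tumors. This is a mouse model of small-cell lung cancer made from a transplanted *Rb/p53* mutant cell line. Live CD45+ cells were sorted at day 19 after inoculation, although the labels name the cells as T cells. All mice received 3 µg of an IL-10 cytokine on alternate days, the first on day 7 and the last on day 19. The mono-IL-10 group received a monomeric IL-10 ("Supermono-10" in the labels) and the IL-10/2-Trikine group a fusion that also recruits IL-2Rβ to the IL-10 receptor. The combination group received the IL-10/2-Trikine with 4 doses of 200 µg of anti-PD-1 antibody, spaced from day 7 to day 19. The protocol text can also be read as giving the antibody to every group, whereas the sample labels name it for the combination alone. The 3 libraries analysed here include no untreated mice. IL-10/2-Trikine over mono-IL-10 therefore asks what recruiting IL-2Rβ adds, and the combination over IL-10/2-Trikine asks what the antibody adds. The 2 comparisons share the IL-10/2-Trikine library.

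Each group was 1 library, and the number of mice behind it is not given, so no test between groups was possible and no value below carries a biological replicate error. Expression is given as CPM, the unique molecular identifier (UMI) counts of a gene scaled to counts per 1e6 of all UMIs summed over the cells of a class in a library, with exact Poisson 95% intervals. Ratios carry exact conditional intervals, and shares of cells carry Clopper-Pearson intervals where printed. All of them cover counting error only. A receptor is called higher or lower where the ratio passed 1.5-fold with at least 20 UMIs in the pair. This is a rule of size and not a significance test.

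The libraries held 158570946 to 197176873 UMIs, and 71909 cells passed the filters. Clusters named from markers gave 29198 T cell-like and 7446 NK cell-like cells. UMI gates inside them gave 13052 CD8, 7241 Foxp3-negative CD4 and 2725 Foxp3-positive cells. The 8394 cycling T cells overlap those gates, and the NK class holds the 3444 NK cell-like cells with no *Cd3d*, *Cd3e* or *Cd3g* UMI. Median depth was 8607 to 9078 UMIs in Foxp3-positive cells and 3982 to 6108 UMIs in Foxp3-negative CD4 cells. Libraries shared 137 to 180 barcodes by pair. Although the labels name T cells, 29198 of the 71909 cells thus lay in clusters named T cell. This is not a count of all T cells. An unnamed cluster of 3174 cells had a *Cd3e* UMI in 72.7% of them. *Cd3* transcripts were also seen in 4002 of the 7446 cells in clusters named NK. How many of these are T cells was not tested. The classes themselves held their defining markers, with *Ncr1*, an NK receptor, at 527 to 777 CPM in NK cells and *Ikzf2* at 1510 to 1906 CPM in Foxp3-positive cells. The Foxp3-positive class also held CD8 transcripts, with *Cd8a* at 163, 85.3 and 101 CPM beside *Cd4* at 203, 200 and 247 CPM with mono-IL-10, the IL-10/2-Trikine and the combination. Whether these came from CD8 cells, doublets or free RNA was not tested. Foreign RNA was low but uneven. The summed level of 8 macrophage genes was 69.4 to 95.1 CPM in the 5 classes of the mono-IL-10 library, 37.5 to 54.8 CPM with the IL-10/2-Trikine and 57.2 to 97.0 CPM with the combination, with none of the 8 at 0. The summed level of 5 B cell genes was 98.0, 88.8 and 74.5 CPM in Foxp3-positive cells of the 3 libraries in the same order. In Foxp3-negative CD4 cells it was 43.0, 18.8 and 14.3 CPM. The part of foreign RNA in the results was not tested.

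T cells need a costimulatory signal beside the antigen receptor to expand and survive. CD28 and ICOS belong to the immunoglobulin superfamily and bind B7 family ligands. CD28 is carried by naive T cells and recruits PI3K, GRB2 and the PKCθ pathway, while ICOS appears after activation and is a strong activator of PI3K. OX40, 4-1BB and GITR belong to the TNF receptor superfamily, signal through TRAF adaptors to NF-κB, and are induced by activation, with OX40 and GITR known for their high level on regulatory T cells and 4-1BB for its presence on activated CD8 and NK cells. IL-2 and IL-10 act through STAT5 and STAT3, respectively, as their main transcription factors.

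The promoters of the TNF receptor members are shown because these 3 genes differed together between libraries in non-cycling CD4 cells, as described below. RefSeq entries (GRCm38.p6, 250 bases before to 50 bases after the start) matched 3 of the 5 members. *Tnfrsf4* and *Tnfrsf18* are neighbors on chromosome 4, with 0 protein-coding genes between them. *Cd28*, *Ctla4* and *Icos* lie in a row on chromosome 1, with 0 protein-coding genes in either gap. *Cd28* and *Icos* had no entry in the promoter set used. Capitals mark matches, on either strand, to TTCNNNGAA (the letters of a STAT element), TGANTCA (AP-1) or GGG, 5 free bases and CC (the letters of an NF-κB element). The *Tnfrsf4* promoter is at chr4:156013445-156013744, plus strand, the second *Tnfrsf9* promoter at chr4:150927749-150928048, plus strand, and the *Tnfrsf18* promoter at chr4:156026072-156026371, plus strand.
Tnfrsf4: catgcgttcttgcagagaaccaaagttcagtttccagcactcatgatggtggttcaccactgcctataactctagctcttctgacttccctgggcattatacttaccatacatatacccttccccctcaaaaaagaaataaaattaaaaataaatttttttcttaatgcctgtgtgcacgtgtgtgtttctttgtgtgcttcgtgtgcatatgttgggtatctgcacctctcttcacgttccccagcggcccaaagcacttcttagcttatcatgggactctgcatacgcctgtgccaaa
Tnfrsf9, entry 2: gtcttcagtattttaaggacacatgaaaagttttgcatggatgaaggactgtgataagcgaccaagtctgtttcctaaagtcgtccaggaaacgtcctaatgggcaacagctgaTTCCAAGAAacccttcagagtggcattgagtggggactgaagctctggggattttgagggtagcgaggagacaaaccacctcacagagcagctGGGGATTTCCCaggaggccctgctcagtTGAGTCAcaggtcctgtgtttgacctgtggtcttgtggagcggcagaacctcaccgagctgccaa
Tnfrsf18: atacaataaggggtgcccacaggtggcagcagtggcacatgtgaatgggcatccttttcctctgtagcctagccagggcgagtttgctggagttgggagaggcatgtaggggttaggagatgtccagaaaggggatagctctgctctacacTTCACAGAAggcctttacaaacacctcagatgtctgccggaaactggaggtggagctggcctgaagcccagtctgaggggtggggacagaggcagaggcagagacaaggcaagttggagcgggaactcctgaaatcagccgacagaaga
The *Tnfrsf9* window held TTCCAAGAA at -136, TGAGTCA at -15 and overlapping matches to the NF-κB letters at -43 and -42. The *Tnfrsf18* window held TTCACAGAA at -99. The *Tnfrsf4* window and the other *Tnfrsf9* entry, at chr4:150919905-150920204 on the plus strand, held no match. Over 32851 promoters of the same length, 8.3% held TTCNNNGAA, 7.81% held TGANTCA and 50.8% held the NF-κB letters. A match is a description of letters and not a bound site.

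CD28 transcripts were spread across the T cell classes and lower in NK cells. In CD8 cells *Cd28* was at 275 CPM with mono-IL-10, 230 CPM with the IL-10/2-Trikine and 247 CPM with the combination. In Foxp3-negative CD4 cells it was at 325 CPM [313-337], 196 CPM [190-202] and 192 CPM [186-197] in the same order. In Foxp3-positive cells it was at 261, 228 and 222 CPM, respectively. Foxp3-negative CD4 cells thus led the mono-IL-10 library, while CD8 cells led the others, and the intervals of CD8 and Foxp3-positive cells overlapped in the mono-IL-10 and IL-10/2-Trikine libraries. The CD8 lead with the IL-10/2-Trikine was not seen outside cycling cells. There CD8, Foxp3-negative CD4 and Foxp3-positive cells held 317, 326 and 324 CPM with the IL-10/2-Trikine. With the combination they held 306, 258 and 265 CPM. Cycling T cells held 210, 178 and 164 CPM and NK cells 82.7, 76.0 and 72.8 CPM. The top class was 3.03 to 3.93 times the NK level.

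*Icos*, whose product marks activated and follicular helper T cells, was highest in Foxp3-positive cells of every library. Its level there was 525 CPM [505-545] with mono-IL-10, 528 CPM [517-540] with the IL-10/2-Trikine and 641 CPM [628-654] with the combination. Foxp3-negative CD4 cells followed at 522 CPM [507-537], 400 CPM [392-409] and 559 CPM [551-568], and their interval overlapped that of Foxp3-positive cells in the mono-IL-10 library. CD8 cells held 298 CPM [292-305], 198 CPM [193-203] and 338 CPM [331-346]. In both conventional classes the IL-10/2-Trikine library was the lowest of the 3. Cycling T cells held 293, 246 and 336 CPM, which overlapped the CD8 interval with mono-IL-10 and the combination. NK cells held 50.6 CPM [42.3-60.2], 54.2 CPM [47.7-61.3] and 55.1 CPM [48.9-61.9], so that the 3 libraries overlapped.

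*Tnfrsf4* separated the classes most widely. It was at 465 CPM [446-484], 495 CPM [484-506] and 710 CPM [696-724] in Foxp3-positive cells with mono-IL-10, the IL-10/2-Trikine and the combination, and at 283 CPM [272-294], 313 CPM [305-321] and 445 CPM [438-453] in Foxp3-negative CD4 cells. CD8 cells held 34.0 CPM [31.7-36.3], 48.4 CPM [46.0-50.9] and 51.6 CPM [48.7-54.7]. NK cells held 10, 9 and 27 UMIs, or 3.96, 1.94 and 5.18 CPM. The order Foxp3-positive, Foxp3-negative CD4, cycling T, CD8 and NK was the same in the 3 libraries with no overlap between neighbors. The NK values rest on too few UMIs for a fold against them.

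*Tnfrsf9* differed from the others in its NK level. NK cells held 376 CPM [352-400], 336 CPM [320-354] and 379 CPM [363-396] with mono-IL-10, the IL-10/2-Trikine and the combination, above the 198, 214 and 203 CPM of CD8 cells. Foxp3-positive cells were highest, at 657 CPM [635-680], 696 CPM [683-709] and 902 CPM [886-917]. Foxp3-negative CD4 cells held 308 CPM [296-320], 395 CPM [386-404] and 616 CPM [607-626], below NK cells in the mono-IL-10 library and above them in the others. *Tnfrsf18* was at 334, 327 and 412 CPM in Foxp3-positive cells and at 198, 235 and 281 CPM in Foxp3-negative CD4 cells. Its CD8 levels of 82.3, 88.1 and 110 CPM overlapped its NK levels of 94.6, 93.3 and 102 CPM.

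**Figure D1:**
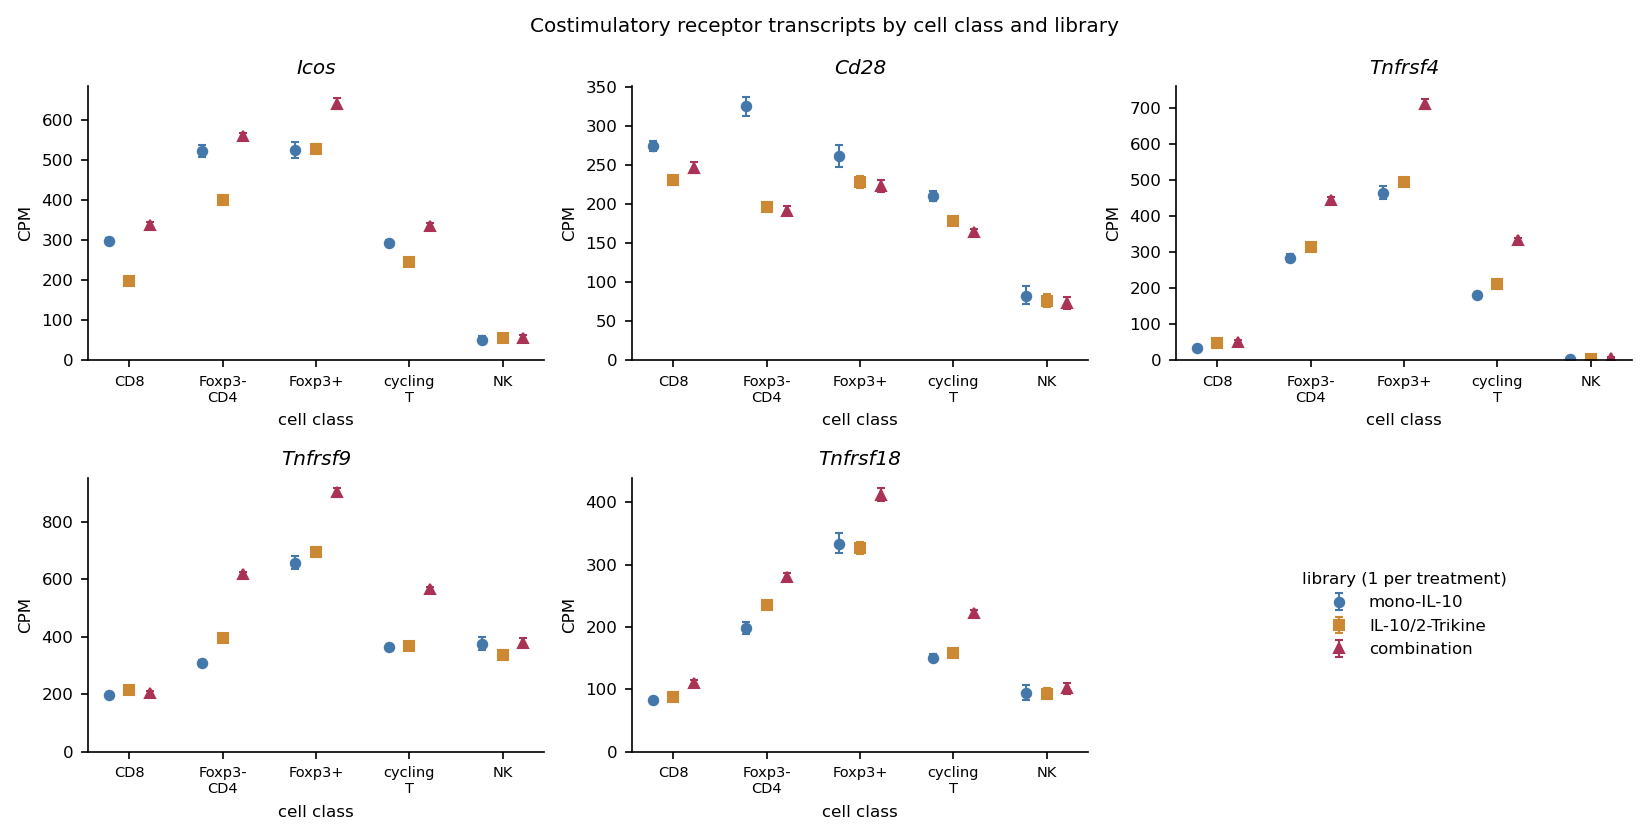
CPM of the 5 receptors (one panel each, y axis) in the 5 cell classes (x axis), with a point for each library and bars for exact Poisson 95% intervals. *Tnfrsf4* is at 465 to 710 CPM in Foxp3-positive cells and at 1.94 to 5.18 CPM in NK cells, whereas *Tnfrsf9* stays at 336 to 379 CPM in NK cells.

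The share of cells with at least 1 UMI was compared after each cell was thinned to 1000 UMIs, in the classes as gated on all UMIs. In Foxp3-negative CD4 cells *Icos* was seen in 37.1%, 40.0% and 45.5% of thinned cells with mono-IL-10, the IL-10/2-Trikine and the combination, and in 70.9%, 85.1% and 86.2% before thinning. *Tnfrsf4* was seen in 18.2%, 28.6% and 34.1% of these cells, and in 42.9%, 74.5% and 74.7% before thinning. *Tnfrsf9* was seen in 15.2%, 26.9% and 35.1%, and in 34.4%, 63.9% and 69.3% before thinning. All 3 shares were thus lowest with mono-IL-10, although the *Icos* CPM was lowest with the IL-10/2-Trikine, so no order between those libraries is read for *Icos*. The *Cd28* share went the other way, at 27.5%, 21.7% and 20.2%.

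In CD8 cells the *Icos* share was 23.3%, 19.9% and 29.3% after thinning (59.1%, 59.1% and 63.7% before), and the *Tnfrsf4* share was 0.96%, 2.51% and 2.70%. In Foxp3-positive cells *Tnfrsf4* was seen in 35.4%, 44.3% and 49.5% and *Tnfrsf9* in 41.5%, 51.7% and 58.2%. In NK cells *Tnfrsf9* was seen in 18.8%, 21.9% and 25.3% (38.8%, 45.4% and 44.3% before). Neutrophil-like cells, which should lack these receptors, gave the background. Their thinned shares reached 9.88% for *Icos*, 3.31% for *Cd28*, 1.11% for *Tnfrsf4*, 3.70% for *Tnfrsf9* and 3.70% for *Tnfrsf18*, with median depths of 1331 to 2082 UMIs and with 81 thinned cells in the combination library. The NK share of *Tnfrsf4*, 0.199% to 0.371%, lay below this background in the mono-IL-10 and IL-10/2-Trikine libraries, and the NK share of *Icos*, 4.17% to 6.91%, lay below it in the combination. Neither is read as expression there. Droplets with at most 50 UMIs, which hold free RNA, contained the 5 receptors at 69.2 to 294 CPM, and the estimated free RNA in the 5 classes was 1.80% to 3.95% of UMIs.

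**Figure D2:**
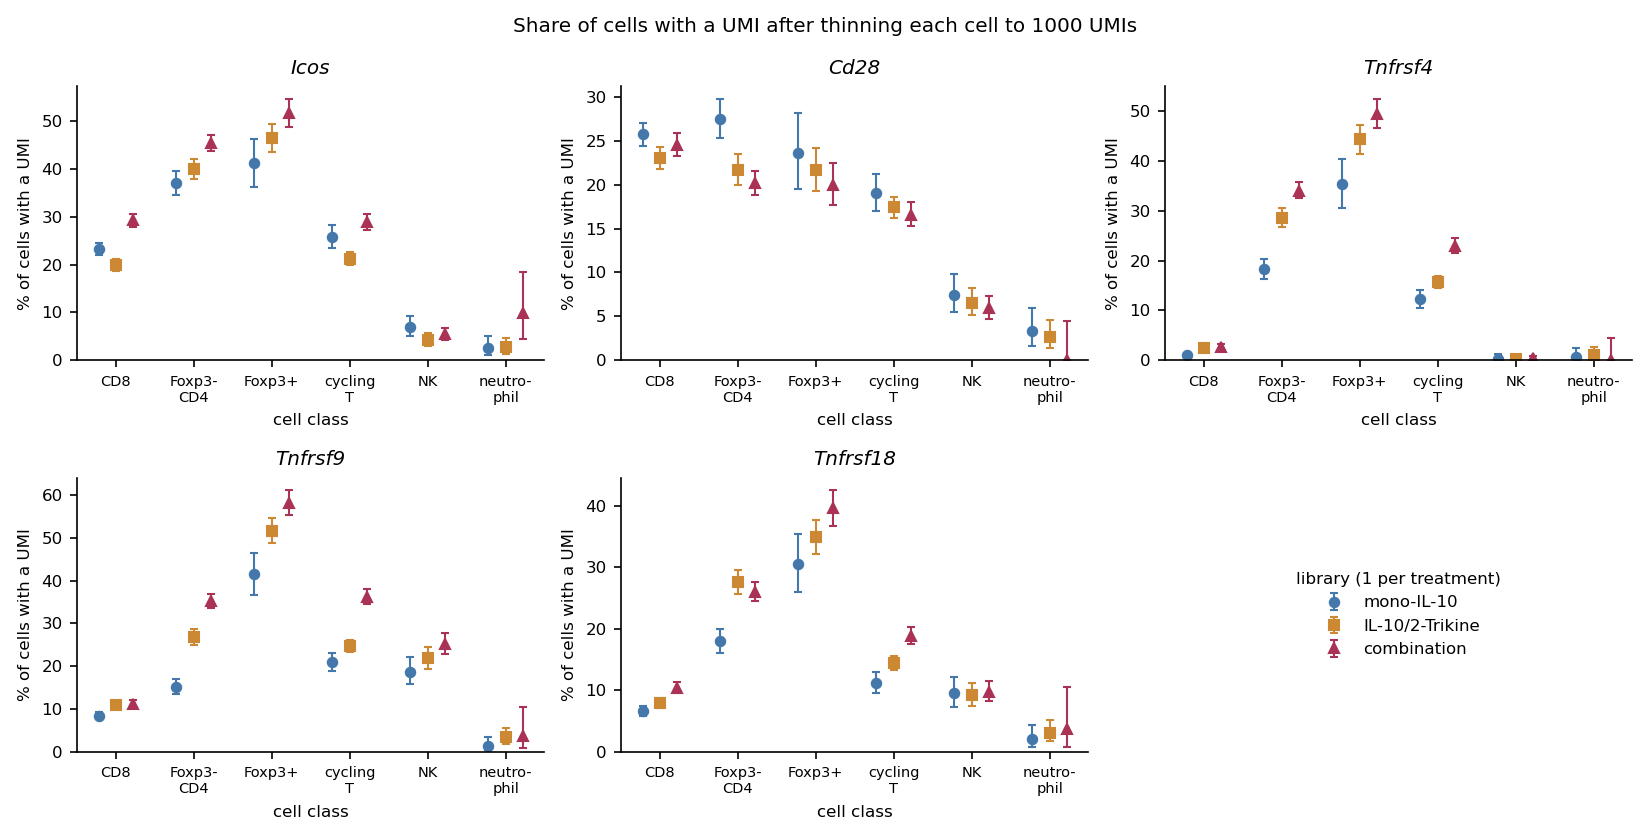
Share of cells with a UMI of each receptor after thinning to 1000 UMIs (y axis, percent), by class and library, with Clopper-Pearson 95% intervals and neutrophil-like cells as background. *Tnfrsf9* in Foxp3-negative CD4 cells goes from 15.2% with mono-IL-10 to 35.1% with the combination, while every neutrophil-like share is at or under 9.88%.

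At least 2 of the 5 receptors were seen in 53.4%, 63.2% and 71.0% of thinned Foxp3-positive cells with mono-IL-10, the IL-10/2-Trikine and the combination. The values were 31.5%, 43.6% and 51.4% in Foxp3-negative CD4 cells and 12.6%, 12.5% and 17.2% in CD8 cells. NK cells held 4.93%, 5.17% and 6.17%, and neutrophil-like cells 2.32%, 2.00% and 3.70%. *Icos* together with *Pdcd1*, the gene of PD-1, was seen in 7.06%, 9.75% and 14.2% of thinned Foxp3-negative CD4 cells, the highest of the 5 classes in each library, in 2.37%, 3.31% and 7.66% of thinned CD8 cells and in 2.54%, 4.62% and 9.40% of thinned Foxp3-positive cells. Both were seen together in 0 of 608, 0 of 1006 and 0 of 1346 thinned NK cells. *Pdcd1*, with or without *Icos*, was seen in 15.2%, 22.0% and 29.4% of thinned Foxp3-negative CD4 cells. Whether the joint shares differ from what the single shares give was not tested.

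Setting the IL-10/2-Trikine against mono-IL-10 gave 2 calls over whole classes, on sums of UMIs that weight deep cells. *Icos* was lower in CD8 cells, at 198 against 298 CPM (ratio 0.662 [0.640-0.685]), and *Cd28* was lower in Foxp3-negative CD4 cells, at 196 against 325 CPM (0.603 [0.575-0.633]). These were 2 of the 24 pairs of receptor and class with enough UMIs, and 0 were higher. The counts depended on this weighting, with 4 higher and 0 lower for the mean of per-cell CPM. With each cell thinned to 1000 UMIs, 4 were higher and 1 lower in the classes as gated, and 8 and 0 when the gates were redrawn on the thinned cells. Over all genes tested in the same way, 8.15% were higher and 17.3% lower in CD8 cells, 12.5% and 24.8% in Foxp3-negative CD4 cells, 5.20% and 10.5% in Foxp3-positive cells, 6.53% and 12.8% in cycling T cells, and 10.6% and 10.9% in NK cells. The 1 of 5 receptors lower in each of the first classes is close to that background. The median of all genes lay at -0.18 to -0.07 on the log2 scale, and both calls were lost with the mean of per-cell CPM, after thinning either way, and when ratios were scaled by the median of ratios, whose shift on the log2 scale was -0.18 in CD8 cells, -0.23 in Foxp3-negative CD4 cells and -0.13 to -0.11 in the other classes.

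Among the TNF receptors, *Tnfrsf4* had a ratio of 1.42 [1.31-1.55] in CD8 cells and *Tnfrsf9* of 1.28 [1.23-1.34] in Foxp3-negative CD4 cells, both short of 1.5-fold. With classes taken from T cell sub-clusters instead of gates, these ratios turned below 1, at -0.07 and -0.10 on the log2 scale. Both instead passed 1.5-fold with median-of-ratios scaling, with the mean of per-cell CPM and after thinning, with log2 ratios of up to 1.58 for *Tnfrsf4* in CD8 cells and up to 0.93 for *Tnfrsf9* in Foxp3-negative CD4 cells. The *Icos* ratio in Foxp3-negative CD4 cells was 0.767, and it turned above 1 when each cell counted equally or was thinned, at up to 0.35 on the log2 scale. Cycling cells were the deep ones, with a median of 11454 to 12717 UMIs.

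**Figure D3:**
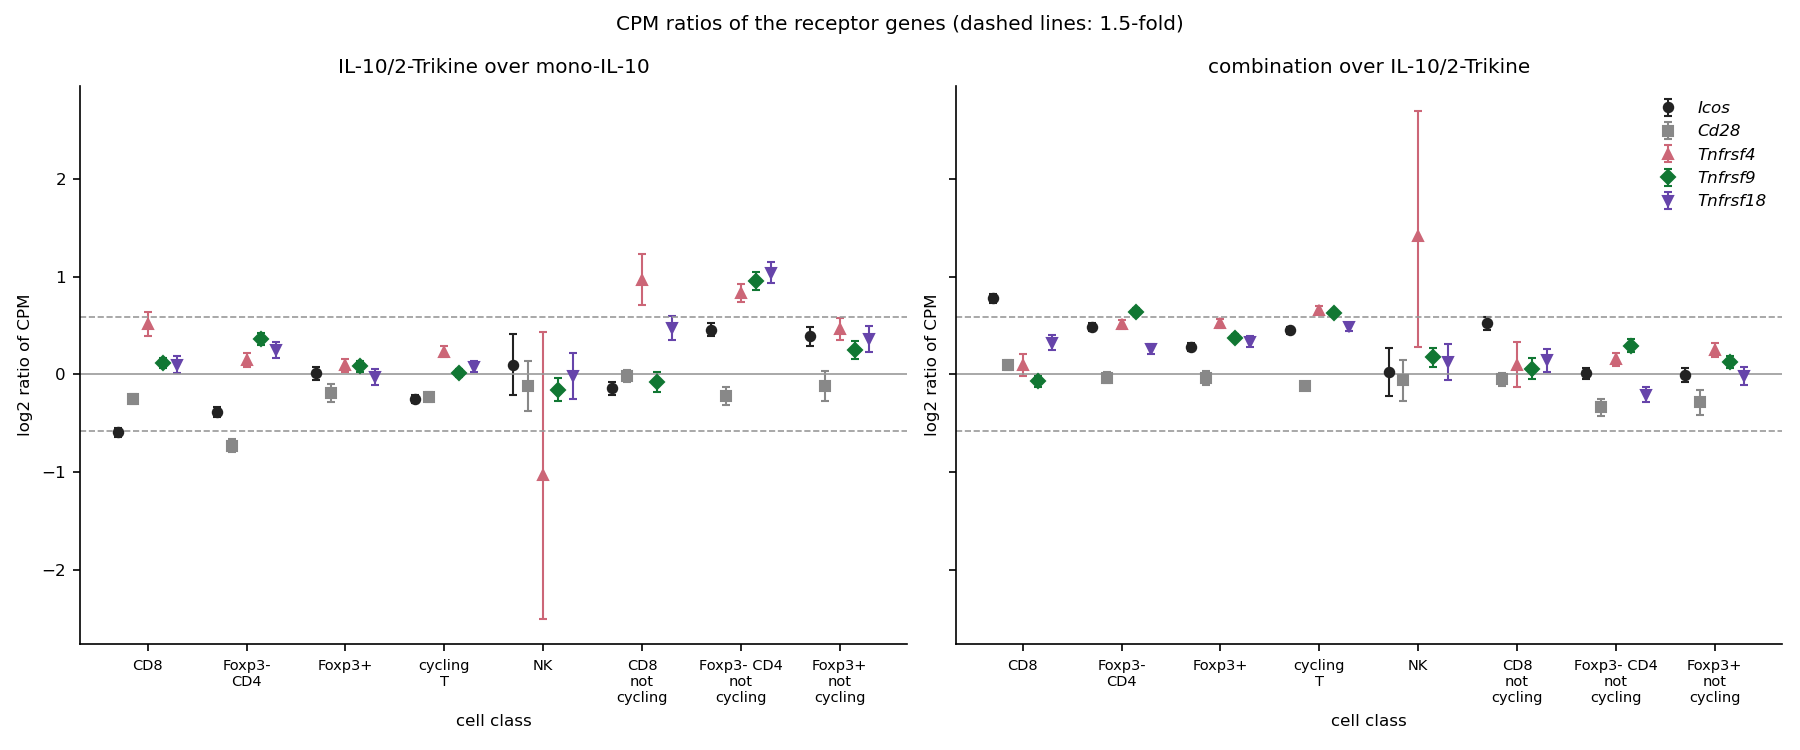
Ratios of the 5 receptors in each class (log2 axis) for IL-10/2-Trikine over mono-IL-10 and for combination over IL-10/2-Trikine, with exact conditional 95% intervals and lines at 1.5-fold. In the first comparison *Icos* in CD8 cells (0.662) and *Cd28* in Foxp3-negative CD4 cells (0.603) pass the lower line, and in the second 5 pairs pass the upper one.

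The share of cycling cells differed between libraries, so each gate was also divided. Cycling cells were 15.7%, 45.2% and 31.7% of Foxp3-negative CD4 cells with mono-IL-10, the IL-10/2-Trikine and the combination, and 17.9%, 39.7% and 19.4% of CD8 cells. *Icos* was lower in cycling than in non-cycling Foxp3-negative CD4 cells of every library, at 302 against 633, 255 against 869 and 332 against 874 CPM. In CD8 cells the *Icos* ratio of the IL-10/2-Trikine to mono-IL-10, 0.662 over the class, was 0.626 [0.593-0.661] in cycling and 0.907 [0.866-0.949] in non-cycling cells, where it was not called. *Tnfrsf9* was higher in the cycling CD8 cells, at 300 against 134, 253 against 126 and 293 against 132 CPM. In Foxp3-negative CD4 cells *Tnfrsf9* was higher in cycling cells with mono-IL-10, at 395 against 264 CPM, and lower with the IL-10/2-Trikine, at 359 against 510 CPM. In the cycling NK cells *Tnfrsf9* was lower with the IL-10/2-Trikine than with mono-IL-10, at 289 CPM in 168 cells against 573 CPM in 31 cells (0.505 [0.418-0.612]), while in non-cycling NK cells it was at 363 against 353 CPM. A cluster named NK but led by *Klra6* and *Klra5* had a *Mki67* UMI in 93.2%, *Cd3e* in 82.9% and *Ncr1* in 37.6% of cells. It gave 118 cells of the NK class with the IL-10/2-Trikine and 14 with mono-IL-10. Its part in the *Tnfrsf9* ratio of cycling NK cells was not tested. Of the receptors, *Icos* in CD8 and *Tnfrsf9* in NK cells were thus the calls of the first comparison among cycling cells. The matching shares of all genes were 5.93% higher and 9.90% lower in cycling CD8 cells, 7.39% and 17.8% in Foxp3-negative CD4 cells, 5.36% and 8.96% in Foxp3-positive cells, and 14.8% and 16.6% in NK cells.

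Non-cycling Foxp3-negative CD4 cells held 3 of the 4 calls of the first comparison among non-cycling cells. *Tnfrsf4* stood at 511 CPM with the IL-10/2-Trikine against 288 CPM (1.78 [1.67-1.89]). *Tnfrsf9* stood at 510 against 264 CPM (1.93 [1.81-2.06]), and *Tnfrsf18* at 412 against 201 CPM (2.05 [1.91-2.21]). *Icos*, at 869 against 633 CPM (1.37 [1.31-1.44]), did not reach 1.5-fold, and *Cd28* was at 326 against 380 CPM (0.857). The 3 TNF receptors were thus higher and the CD28 family members were not called in the gate as a whole. Over all genes in these cells, 6.10% were higher and 15.2% lower. In non-cycling CD8 cells *Tnfrsf4* was higher, at 28.9 against 14.8 CPM (1.95 [1.63-2.34]), with 4.13% of all genes higher and 14.0% lower. *Tnfrsf18* was at 104 against 74.7 CPM there (1.39) and *Tnfrsf9* at 126 against 134 CPM (0.947). A cluster led by *Cd8b1* and *Esm1* held 77.1% of these CD8 cells in the IL-10/2-Trikine library, against 57.7%. Within it all 3 TNF receptors passed 1.5-fold, at 2.38 [1.54-3.73] for *Tnfrsf4*, 1.58 [1.36-1.85] for *Tnfrsf9* and 1.69 [1.499-1.92] for *Tnfrsf18*. The *Tnfrsf4* ratio rests on 65 against 33 UMIs. Levels in this cluster were low, at 9.70 against 4.08 CPM for *Tnfrsf4*, 58.2 against 36.7 CPM for *Tnfrsf9* and 93.7 against 55.3 CPM for *Tnfrsf18*. Free RNA was estimated at 3.86% against 2.87% of UMIs in non-cycling CD8 cells, and its part in these ratios was not tested. In a cluster led by *Calcb* and *Lag3* the ratios were 2.15, 0.969 and 1.04. In non-cycling Foxp3-positive cells the ratios were 1.38 for *Tnfrsf4*, 1.31 for *Icos*, 1.28 for *Tnfrsf18* and 1.19 for *Tnfrsf9*, with 0 of 5 called and 5.36% of all genes higher and 12.5% lower.

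**Figure D4:**
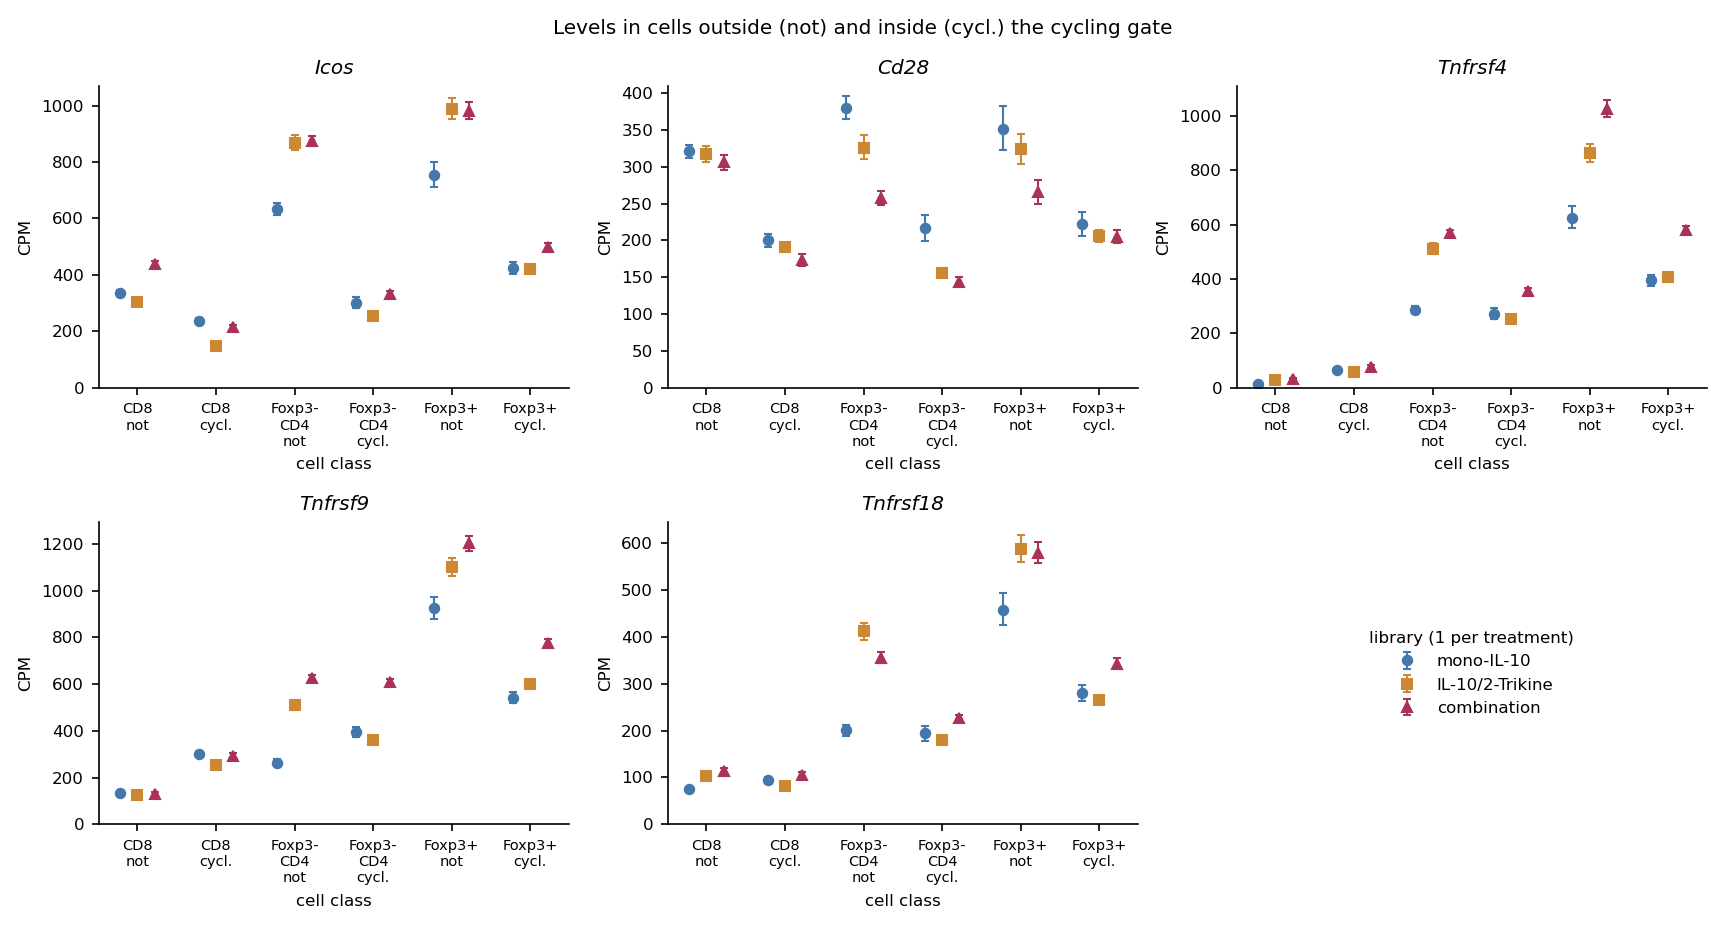
CPM of the 5 receptors (y axis) in non-cycling and cycling cells of the 3 T cell gates by library, with exact Poisson 95% intervals. In non-cycling Foxp3-negative CD4 cells *Tnfrsf4*, *Tnfrsf9* and *Tnfrsf18* stand at 511, 510 and 412 CPM in the IL-10/2-Trikine library, against 288, 264 and 201 CPM.

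The makeup of the gate moved with this result. Of the non-cycling Foxp3-negative CD4 cells, 32.5%, 65.5% and 44.1% lay in a cluster led by *Itgb8*, *Tnfsf8* and *Foxp3*, in which 25.6% of cells had a *Foxp3* UMI. At the finer resolution of 2, a cluster led by *Itgb8* and *Foxp3* had a *Foxp3* UMI in 62.6% of cells. Another, led by *Tnfsf8* and *Cd40lg*, had one in 3.95%. The *Foxp3*-led cluster is thus not taken as 1 cell type. Foxp3-expressing cells without a *Foxp3* UMI can lie in the gate, and their part in the ratios was not tested. A cluster led by *Calcb*, *Lag3* and *Csf1* held 31.4%, 23.8% and 44.9%. A cluster led by *Dapl1*, *Igfbp4* and the heat shock genes *Hspa1b* and *Hspa1a* held 22.6%, 4.67% and 3.30%. At the finer resolution of 2 the cluster led by *Dapl1* and *Igfbp4* held 1466, 240 and 201 cells of the 3 libraries against 1483, 371 and 335 here, with no heat shock gene among its 10 leading genes, so receptor levels are not compared within it. Within the *Foxp3*-led cluster the ratios of the IL-10/2-Trikine to mono-IL-10 were 1.64 [1.49-1.80] for *Tnfrsf4*, 1.92 [1.72-2.14] for *Tnfrsf9* and 2.11 [1.88-2.37] for *Tnfrsf18*. Within the *Lag3* cluster they were 1.31 [1.18-1.45], 1.62 [1.47-1.78] and 1.44 [1.28-1.63], of which *Tnfrsf9* passed 1.5-fold. All 3 TNF receptors had ratios above 1 in both of these clusters. A cluster led by histone genes and *Rrm2* held 30 IL-10/2-Trikine and 37 mono-IL-10 cells of the gate, with *Tnfrsf4* at 471 [385-572] against 648 [544-766] CPM, *Tnfrsf9* at 650 against 586 CPM and *Tnfrsf18* at 270 against 267 CPM. With classes taken from sub-clusters, *Tnfrsf18* kept its call (log2 0.73), while *Tnfrsf4* (0.39) and *Tnfrsf9* (0.21) lost theirs, and *Tnfrsf4* in non-cycling CD8 cells was at 0.01.

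*Pdcd1* divided the non-cycling Foxp3-negative CD4 cells further. The share of all genes past 1.5-fold was not computed for these subsets, so the ratios that pass it have no background beside them. In cells without a *Pdcd1* UMI, *Tnfrsf4* was at 189, 544 and 544 CPM in the 3 libraries, and *Tnfrsf9* was at 156, 462 and 449 CPM. Their IL-10/2-Trikine ratios were 2.88 [2.60-3.20] and 2.96 [2.65-3.32]. *Tnfrsf18*, at 150, 391 and 337 CPM, had a ratio of 2.60 [2.31-2.92] in these cells, and *Icos*, at 548, 957 and 948 CPM, one of 1.75 [1.63-1.87], so that a CD28 family member also passed 1.5-fold. In cells with a *Pdcd1* UMI, *Tnfrsf4* was at 403, 489 and 578 CPM and *Tnfrsf9* at 390, 542 and 688 CPM, with ratios of 1.21 [1.12-1.31] and 1.39 [1.29-1.51]. *Tnfrsf18* was at 259, 426 and 363 CPM in them, with a ratio of 1.64 [1.496-1.809] that passed 1.5-fold. Among mono-IL-10 cells both receptors were thus higher where *Pdcd1* was seen, 2.14 times for *Tnfrsf4* and 2.50 times for *Tnfrsf9*, whereas with the IL-10/2-Trikine the same quotients were 0.90 and 1.17, and with the combination 1.06 and 1.53. Median depth was 3632 to 4561 UMIs in cells with a *Pdcd1* UMI and 2964 to 3319 UMIs in cells without, and the part of depth in this split was not tested. The *Dapl1*-led cluster held 22.6% of the gate in the mono-IL-10 library, with *Tnfrsf4* at 63.3 and *Tnfrsf9* at 43.4 CPM. It held 4.67% in the IL-10/2-Trikine library, with *Tnfrsf4* at 410 and *Tnfrsf9* at 445 CPM in 55 cells. As its cells changed with the resolution, these levels are not compared. The cluster led by *Cd8b1* and *Esm1* held 10.8% and 3.48%, with both receptors at 46.8 CPM in its mono-IL-10 cells. Its 41 IL-10/2-Trikine cells held *Tnfrsf4* at 88.8 and *Tnfrsf9* at 71.1 CPM, on 10 and 8 UMIs. The part of these clusters in the *Pdcd1* split was not tested.

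Setting the combination against the IL-10/2-Trikine gave 5 of 25 pairs higher and 0 lower, and 20 of the ratios were above 1, against 13 in the first comparison. The pairs are not separate, since cycling T cells share cells with the gates. Of all genes, 49.3% to 54.8% had ratios above 1 in the 5 classes, against 37.8% to 43.9% in the first comparison, and the median of all genes lay at -0.01 to 0.05 on the log2 scale. *Icos* was higher in CD8 cells, at 338 against 198 CPM (1.71 [1.66-1.77]). *Tnfrsf9* was higher in Foxp3-negative CD4 cells, at 616 against 395 CPM (1.56 [1.52-1.60]), and in cycling T cells, at 566 against 366 CPM (1.55 [1.52-1.57]). The first of these calls was lost with the mean of per-cell CPM and after thinning, at 0.44 on the log2 scale in the gate as drawn and 0.24 in the redrawn gate. *Tnfrsf4* was higher in cycling T cells, at 334 against 211 CPM (1.58 [1.54-1.62]). The makeup of the cycling cells differed as well, with 842 CD8 and 1101 Foxp3-negative CD4 cells among 3011 with the combination, against 1728 and 971 among 3973. Within the cycling cells of single gates the *Tnfrsf4* ratio was 1.35 in CD8, 1.42 in Foxp3-negative CD4 and 1.42 in Foxp3-positive cells, all short of 1.5-fold, and the *Tnfrsf9* ratio was 1.15, 1.70 and 1.29, of which Foxp3-negative CD4 passed. Thinned cells of these gates had *Tnfrsf9* log2 ratios of 0.47, 0.71 and 0.30, while gates redrawn on thinned cells gave 0.85, 0.49 and 0.67, so that there Foxp3-negative CD4 lost the call and the others gained one, on 604, 165 and 46 IL-10/2-Trikine cells against 1726, 970 and 608 in the gates as drawn. For *Tnfrsf4* the log2 ratio in cycling CD8 cells was 0.66 in thinned cells with gates kept, which passed 1.5-fold, and -0.01 with redrawn gates. In cycling Foxp3-positive cells it was -0.22 with redrawn gates and 0.60, a call, with a gate on markers per cell. In cycling Foxp3-negative CD4 cells it stayed at 0.40 to 0.53 under every alternative. The call of *Tnfrsf4* in NK cells rests on 27 against 9 UMIs (2.67 [1.22-6.45]), or 5.18 against 1.94 CPM, at a share near background. Free RNA held *Tnfrsf4* at 189 CPM with the combination and 131 CPM with the IL-10/2-Trikine. It was estimated at 3.10% and 2.71% of the UMIs of NK cells in the same order. How much of the NK counts of *Tnfrsf4* is free RNA was not tested. Thinning left 5 against 2 UMIs, too few for a call. When the gate was redrawn on thinned cells the log2 ratio was -0.64 on 10 against 14 UMIs, but 485 of 1831 and 644 of 1650 of those cells had a *Cd3* UMI before thinning, so this value is of another set of cells. Over all genes, 10.3% were higher and 6.43% lower in CD8 cells, 7.37% and 6.26% in Foxp3-negative CD4 cells, 4.55% and 3.69% in Foxp3-positive cells, 5.98% and 5.07% in cycling T cells, and 7.02% and 7.55% in NK cells.

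The other ratios of the second comparison were smaller. *Tnfrsf4* was at 1.42 in Foxp3-negative CD4 and 1.43 in Foxp3-positive cells, *Icos* at 1.40 in Foxp3-negative CD4 cells, and *Tnfrsf18* at 1.19 to 1.40 in the 4 T cell classes. In Foxp3-negative CD4 cells *Tnfrsf18* turned below 1 with the mean of per-cell CPM and after thinning either way. With gates redrawn on thinned cells, Foxp3-positive cells had log2 ratios of -0.12 for *Tnfrsf4* and -0.02 for *Tnfrsf18*. *Cd28* stayed between 0.921 and 1.07 in the 5 classes. In NK cells *Icos*, *Cd28*, *Tnfrsf9* and *Tnfrsf18* had ratios of 0.957 to 1.13.

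The second comparison was also read by cycling state. *Tnfrsf9* was at 359 CPM in cycling Foxp3-negative CD4 cells with the IL-10/2-Trikine and at 610 CPM with the combination (1.70 [1.64-1.76]), whereas in non-cycling cells it was at 510 and 624 CPM (1.22). The call in cycling cells was kept after thinning (0.71 on the log2 scale) and lost when the gate was redrawn on thinned cells (0.49). It was the only receptor call of this comparison in the cycling cells of single gates or in cycling NK cells, where the shares of all genes were 5.89% higher and 4.59% lower in CD8, 5.66% and 4.96% in Foxp3-negative CD4, 3.71% and 3.75% in Foxp3-positive and 5.88% and 6.91% in NK cells. *Tnfrsf4* had a ratio of 1.42 in cycling and 1.11 in non-cycling Foxp3-negative CD4 cells. *Icos* in CD8 cells had a ratio of 1.44 in cycling and 1.44 in non-cycling cells, and 1.71 in the whole class, whose cycling share was 19.4% against 39.7%. Under 4 of 14 alternatives it passed 1.5-fold in cycling CD8 cells, at up to 0.87 on the log2 scale, and under 1 in non-cycling ones (0.64). Within clusters of non-cycling CD8 cells the *Icos* ratio was 1.38 [1.30-1.46] in the cluster led by *Cd8b1* and *Esm1* and 1.61 [1.46-1.78] in the *Lag3* cluster, and 0.78 [0.64-0.94] in the few cells of the *Foxp3*-led cluster. Among non-cycling cells 0 of 15 pairs were called. The matching shares of all genes were 8.65% higher and 4.35% lower in CD8, 6.32% and 5.26% in Foxp3-negative CD4, and 6.87% and 4.56% in Foxp3-positive cells. Whether the 2 comparisons or the cycling and non-cycling cells differ beyond library-to-library variation was not tested, since each group is 1 library.

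The ligands were found in different leukocytes. *Cd86*, a ligand of CD28, was at 434, 265 and 378 CPM in cDC2-like cells with mono-IL-10, the IL-10/2-Trikine and the combination, and at 296, 289 and 275 CPM in monocyte/macrophage-like cells. *Cd80*, the other B7 ligand, was at 156, 234 and 204 CPM in neutrophil-like cells. *Icosl*, the ligand of ICOS, was at 30.5, 1.81 and 4.67 CPM in B cell-like cells, on 250, 3 and 7 UMIs. *Tnfsf9*, the 4-1BB ligand, was at 145, 256 and 190 CPM in the small ILC2-like cluster and at 46.2, 58.2 and 59.7 CPM in Foxp3-negative CD4 cells. *Tnfsf4*, the OX40 ligand, was at 42.9, 21.1 and 20.6 CPM in Foxp3-negative CD4 cells and at 28.2, 14.9 and 19.9 CPM in CD8 cells, highest with mono-IL-10 in both. *Tnfsf18*, the GITR ligand, reached 2.85 CPM in cDC2-like cells on 28 UMIs. The cDC2-like cluster also carried T cell RNA, with a *Cd3e* UMI in 57.1% of its cells, and the part of this RNA in its ligand levels was not tested.

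**Figure D5:**
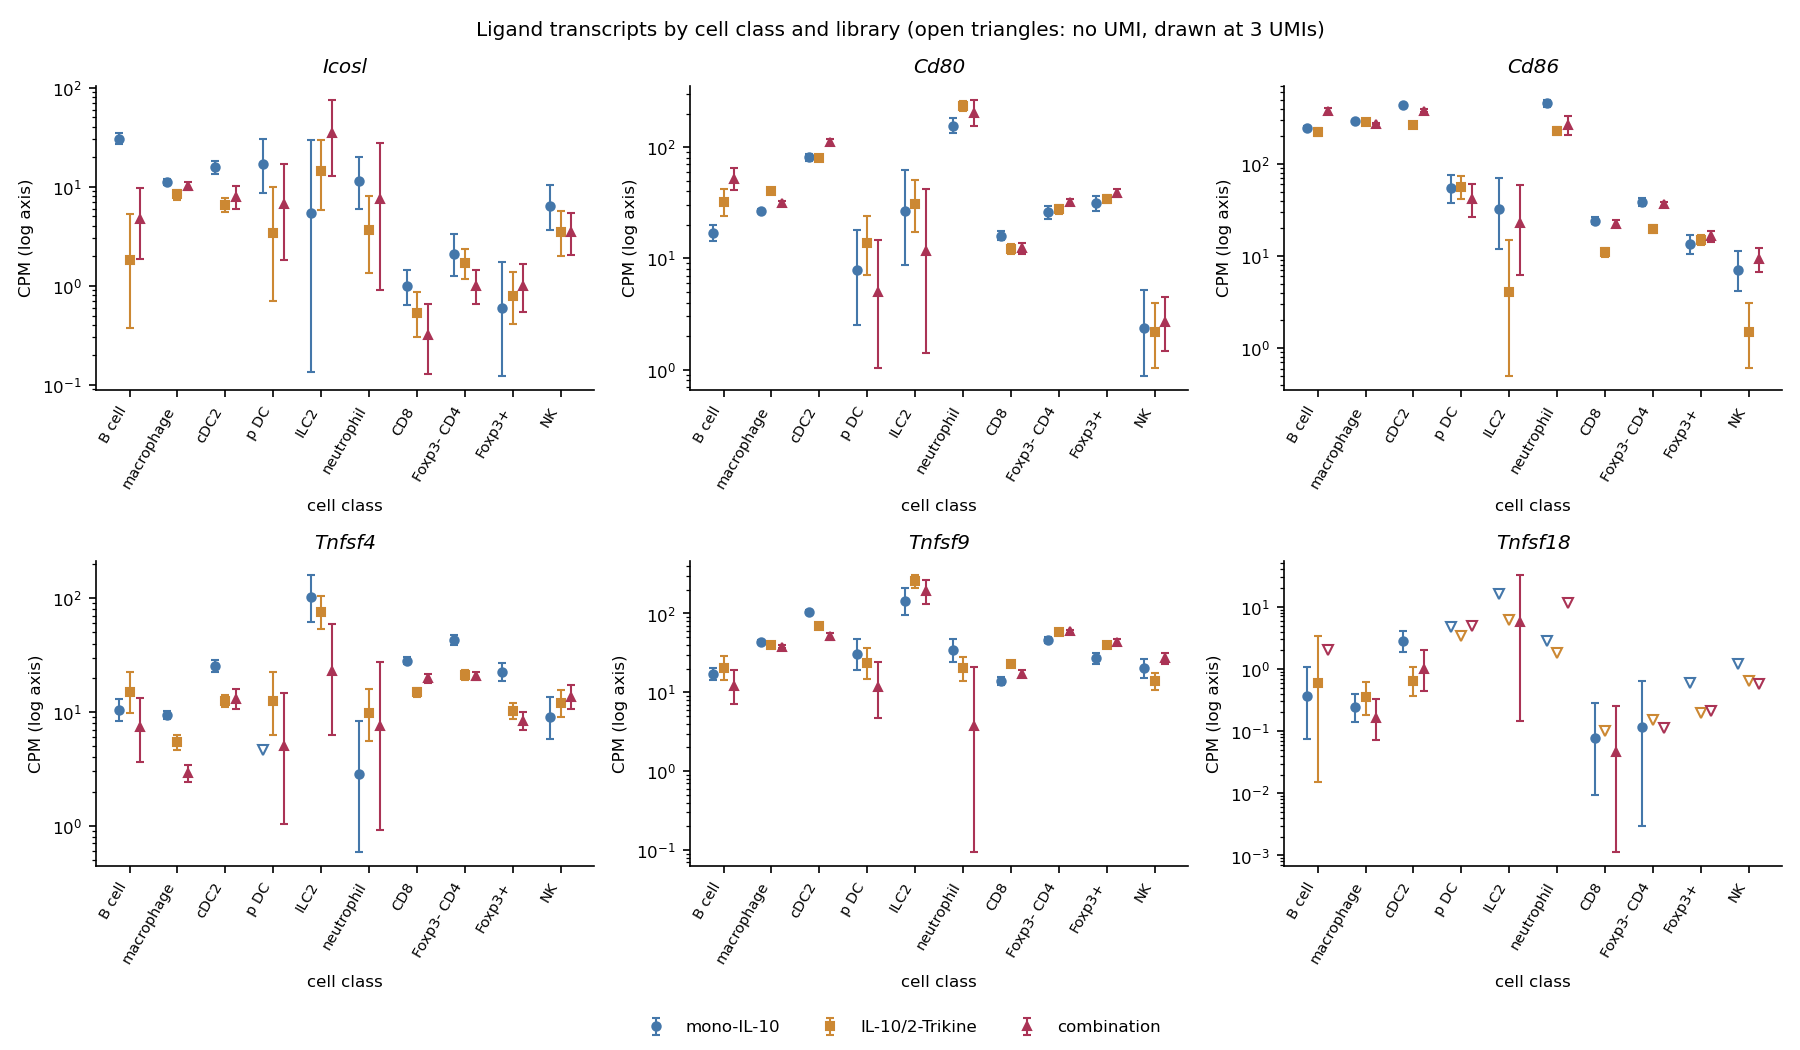
CPM of the 6 ligand genes (one panel each, y axis) in named leukocyte classes by library, with exact Poisson 95% intervals. *Tnfsf4* is higher with mono-IL-10 than with the IL-10/2-Trikine in CD8 cells (28.2 against 14.9 CPM) and in Foxp3-negative CD4 cells (42.9 against 21.1 CPM).

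Other genes of the costimulatory pathways were read as lists, over whole classes only and not divided by cycling state. In Foxp3-negative CD4 cells *Cd3e* was at 838, 554 and 823 CPM with mono-IL-10, the IL-10/2-Trikine and the combination. *Cd4* was at 626, 384 and 572 CPM there. The part of the cycling share, or of such a difference in T cell transcripts, in the list values was not tested. Of 8 further costimulatory receptors, 0 were higher and 7 lower with the IL-10/2-Trikine than with mono-IL-10 in Foxp3-negative CD4 cells, with a median of -0.78 on the log2 scale against -0.18 for all genes, of which 24.8% were lower. *Cd27*, a TNF receptor of resting T cells, was at 86.7 against 185 CPM, *Cd226*, an activating receptor for nectin family ligands, at 72.2 against 135 CPM, and *Tnfrsf14* (HVEM) at 5.69 against 12.9 CPM. The counts were 0 higher and 4 lower in CD8 cells (median -0.66, with 17.3% of all genes lower), 0 and 3 in Foxp3-positive cells (-0.33, with 10.5%), and 1 and 3 in cycling T cells (-0.51, with 12.8%). All 4 medians were farther from 0 than the median-of-ratios shift of their class. Of the 5 receptors followed here, 1 was lower in Foxp3-negative CD4 cells. With the combination the list had 3 higher and 1 lower in CD8 cells, with 10.3% and 6.43% of all genes, and 2 and 2 in Foxp3-negative CD4 cells, with 7.37% and 6.26%, where *Cd27* was at 187 against 86.7 CPM.

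Of the 12 adaptors and kinases, 0 were higher with the IL-10/2-Trikine in any class, and 2 in CD8, 4 in Foxp3-negative CD4, 1 in Foxp3-positive, 1 in cycling T and 4 in NK cells were lower. The shares of all genes lower were 17.3%, 24.8%, 10.5%, 12.8% and 10.9% in the same classes, so the counts outside NK cells are near the background and are no result about the list. *Prkcq*, the kinase PKCθ downstream of CD28, was at 92.3 against 202 CPM in Foxp3-negative CD4 cells. Of 10 NF-κB and survival genes, 0 were higher in any class, and 1 in CD8, 4 in Foxp3-negative CD4, 1 in Foxp3-positive, 1 in cycling T and 5 in NK cells were lower, against the same shares of all genes, with a median log2 ratio of -0.57 in NK cells. Of these genes *Tnfaip3*, a feedback inhibitor of NF-κB, was lower in all 5 classes, with log2 ratios of -1.12 to -0.68. *Bcl2* was at 51.1 against 115 CPM in Foxp3-negative CD4 cells. With the combination, *Bcl2l1*, the gene of BCL-xL, was higher in the 4 T cell classes, at 0.63 to 0.71 on the log2 scale, and 5 of the 10 genes, including *Nfkb1* and *Nfkb2*, were higher in NK cells, where 7.02% of all genes were higher. The 2 comparisons share the IL-10/2-Trikine library. Of the inhibitory relatives, *Pdcd1* was at 185 against 118 CPM in CD8 cells of the first comparison and at 351 against 229 CPM in Foxp3-negative CD4 cells of the second. *Btla* was lower with the IL-10/2-Trikine in CD8 cells (5.51 against 20.1 CPM) and *Ctla4* was not called in the T cell classes.

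The genes whose levels were most like each receptor over 15 points (5 classes in 3 libraries) were named by Pearson correlation of log2(CPM + 10) among 4553 genes. The points share libraries, and cycling T cells share cells with the gates. They were *Slamf1*, *Sdcbp2* and *Agfg1* for *Icos* (0.980 to 0.986), *Map4k2*, *Gm8369* and *Dgka* for *Cd28* (0.975 to 0.988), *Areg*, *Mrps6* and *Cdk6* for *Tnfrsf4* (0.981 to 0.989), *M6pr*, *Rab11a* and *Sh3rf1* for *Tnfrsf9* (0.911 to 0.936), and *Gjb2*, *Tent5a* and *Syngr2* for *Tnfrsf18* (0.971 to 0.974). Among the receptors themselves *Icos* and *Tnfrsf4* were closest (0.922) and *Cd28* and *Tnfrsf9* farthest apart (-0.035).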

How the data were processed

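The authors sorted live CD45+ cells, prepared 10x Genomics 3′ libraries and made the deposited UMI counts per gene and barcode with Cell Ranger. The matrix header names version 8.0.0, the labels name mm10, and the study's methods name a later version and build with introns counted, so no coordinates of reads are given. From the deposited counts, barcodes were kept from 200 genes upward and up to 20% mitochondrial UMIs. Cells were clustered with scanpy 1.11.5 and leidenalg 0.10.2 on 2000 variable genes, 30 components, 20 neighbors and resolution 1, without integration and without the 5 receptors and the pathway lists. Names came from marker lists of 16 classes (at least 3 markers at 1.5-fold and in 10% of cells). Gates used any UMI of *Foxp3*, of *Cd8a* or *Cd8b1* without *Cd4*, or of *Cd4* without *Cd8a* or *Cd8b1*. Cycling meant *Mki67* and 1 of 5 further genes. Doublets were not removed in the main analysis. Computation used scipy 1.17.1 under Python 3.11.15 with pandas 2.3.3 tables and numpy 2.4.6 arrays, and the sums and ratios were tested on simulated data. Named list genes had the largest ratios among those with 20 UMIs. Members and lists were chosen with earlier results of these data known. Alternatives covered filters, clustering, scaling, thinning, gates, doublets and free RNA.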

Additional observations from a re-analysis of the deposited data

How the results depend on the processing

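Over 14 alternatives, 6 of the 7 calls in whole classes kept their direction, and 3 kept the call in each: *Icos* in CD8 cells and *Tnfrsf4* and *Tnfrsf9* in cycling T cells, combination over IL-10/2-Trikine. The exception in direction was *Tnfrsf4* in NK cells, at -0.64 on the log2 scale when gates were redrawn on cells thinned to 1000 UMIs, which adds cells that lost their *Cd3* UMIs, and 0.90 when thinned cells kept their gates. For this pair 13 of the 14 alternatives gave a ratio. Of 43 values not called, 31 stayed so under every alternative. None of the alternatives held the cycling share of a class, or the gates within cycling T cells, fixed. When divided that way, *Icos* in CD8 cells was called neither in cycling nor in non-cycling cells, at 0.52 on the log2 scale in each. *Tnfrsf4* was called in the cycling cells of no single gate, at 0.44 to 0.51. *Tnfrsf9* was called in those of Foxp3-negative CD4 alone (0.76).

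For IL-10/2-Trikine over mono-IL-10, the number of pairs of receptor and class that were higher went from 0 to 2 with median-of-ratios scaling, 4 with the mean of per-cell CPM, 8 with gates redrawn on thinned cells, 4 on thinned cells with gates kept and 1 with all NK cell-like cells. The number lower went from 2 to 3 with no minimum of UMIs, to 0 with median-of-ratios scaling, 0 with per-cell CPM, 0 with gates redrawn on thinned cells, 1 on thinned cells with gates kept, 1 with classes from sub-clusters and 1 without the *Dapl1*-led cluster held mostly (67.8%) by the mono-IL-10 library. Among non-cycling cells the 4 higher became 1 with classes from sub-clusters, 5 with per-cell CPM, 6 with median-of-ratios scaling and 6 with gates redrawn on thinned cells. For the combination over IL-10/2-Trikine, the 5 higher became 3 with either thinning, and with redrawn gates the 0 lower became 1 and, among non-cycling cells, the 0 higher became 1. *Tnfrsf4* gained a call in Foxp3-negative CD4 cells with classes from sub-clusters (log2 0.61) and in Foxp3-positive cells with a gate on markers per cell (0.60). Calls were lost for *Tnfrsf9* in Foxp3-negative CD4 cells with per-cell CPM and for *Tnfrsf4* in NK cells with all NK cell-like cells. The cause was not tested. Leaving out the *Dapl1*-led cluster, removing the 10% of cells with the highest Scrublet scores, thinning with gates kept and the values within clusters were chosen after seeing the data. Scrublet's automatic threshold was not run as an alternative, because it called 12.5% of cells in the mono-IL-10 library and 0 in the others.

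No paired analysis was possible because each group is 1 library. With no replicates, differences between mice, sorts and libraries cannot be told apart from the treatments. Levels of *Tnfrsf4* in NK cells and in the mono-IL-10 cells of the unnamed cluster, and of *Icosl* and *Tnfsf18*, rest on few UMIs. Shares of cells depend on depth. *Icos* in CD8 cells of the mono-IL-10 library, for example, was seen in 23.3% after thinning to 1000 UMIs and in 13.0% after thinning to 500 UMIs.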

Other observations

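A cluster of 3174 cells led by *Trdc*, a T cell receptor delta gene, and by *Klra6* stayed unnamed and lay outside the 5 classes, although 72.7% of its cells had a *Cd3e* UMI. Its *Tnfrsf4* level was 7.79 CPM [4.26-13.1] with mono-IL-10, 14.7 CPM [12.2-17.6] with the IL-10/2-Trikine and 22.6 CPM [18.6-27.1] with the combination. These rest on 14, 117 and 113 UMIs, and the part of free RNA in them was not tested. *Tnfrsf18* was at 121, 127 and 166 CPM. *Icos* was at 161, 166 and 178 CPM with overlapping intervals, and *Cd28* at 214, 209 and 190 CPM.

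T cell-like cells with no *Cd4*, *Cd8* or *Foxp3* UMI, which belong to none of the gates, held *Tnfrsf4* at 68.8, 217 and 241 CPM in the same order, *Tnfrsf18* at 86.1, 199 and 189 CPM and *Tnfrsf9* at 147, 253 and 285 CPM. *Cd28* was at 421, 311 and 304 CPM there. These cells were shallow, with median depths of 1359, 1868 and 1146 UMIs in the 3 libraries. Cells of any gate can lie among them where the marker UMI was missed, so their mix of CD4 and CD8 cells is unknown. No background of all genes was computed for them. The part of depth and of this mix in their receptor levels was not tested. Cells of the NK cell-like clusters that carried a *Cd3* UMI held *Tnfrsf4* at 17.1, 26.0 and 33.8 CPM, above the NK cells without one.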
